A study of Drosophila melanogaster with 8 samples.

Results

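The 10 genes described here act between the start of an autophagosome and its fusion with the lysosome. They are Atg6, Vps15, Atg14 and Uvrag of the class III lipid kinase complexes, Atg9, Atg2, Atg18a and Atg18b of membrane supply and growth, the cargo receptor gene ref(2)P, and the fusion SNARE gene Syx17. They were taken by name from the gene table of a larval fat body RNA-seq study of Drosophila melanogaster, with their 24 transcripts, and all 10 of them were found among its 17471 genes. Each had a mean of at least 1 scaled TPM and was tested. The study compared 4 groups of 2 libraries: larvae homozygous for the CPSF5 allele H11 (CPSF5H11/CPSF5H11) starved for 16 h, and wild-type OreR larvae in the fed state, after 4 h of starvation and after 16 h of starvation. OreR (Oregon R) is a common wild-type stock. CPSF5 is a subunit of cleavage factor I, which takes part in choosing where a pre-mRNA is cut and polyadenylated. A fed mutant was not analysed here, so the effect of starvation inside the mutant cannot be told apart from that of the genotype. The labels do not say that the 2 libraries of a group came from separate animals, so p-values measure only the spread between these libraries, which may be technical.

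During starvation a cell wraps part of its own cytoplasm in a growing double membrane, the phagophore, which closes into an autophagosome and is digested after fusion with a lysosome. A lipid kinase complex marks the site with phosphatidylinositol 3-phosphate, WIPI proteins read that mark, Atg2 conducts lipid into the growing sheet, and Atg9 sits in the vesicles that seed it. The larval fat body, the fly's store of fat, glycogen and protein, is a standard tissue for studying this process because its cells form autophagosomes readily when food is withdrawn.

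Levels are given as TPM, a length-adjusted share of all transcripts in a library. Median-of-ratios factors were applied to the libraries so that the typical gene is level across libraries, and the result is called scaled TPM. Read depth cannot be recovered from TPM and is unknown, and precision rests on the spread between the 2 libraries of a group. A log2 fold change was taken after adding 1 to scaled TPM, which makes changes of low genes look smaller than they are. It carries the standard error (SE) and the adjusted p of limma. A gene was called at an adjusted p under 0.05 over the 8332 genes tested. Means are ± SD with n = 2 libraries.

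The libraries differed in makeup along with their groups. Ribosomal RNA took 4.58% and 5.41% of TPM in the mutant, 5.19% and 6.79% in fed wild type, 12.6% and 14.0% at 4 h, and 48.8% and 31.1% in wild type at 16 h. The summed scaled TPM of 10 fat body markers ran from 3668 to 4655 in the mutant, 20364 to 38537 in fed wild type, 53846 to 94021 at 4 h and 73119 to 76055 in wild type at 16 h, and none of the 10 was at 0 in any library. The 10 markers did not move together. At 4 h against fed 3 rose and 1 fell, at 16 h against fed 3 rose and 2 fell, and in the mutant against wild type at 16 h 3 rose and 5 fell. Markers of 12 salivary gland genes summed to between 879 and 4669 in the mutant, 1006 and 3220 in fed wild type, 23485 and 25322 at 4 h, and 15094 and 41597 in wild type at 16 h, with ng4 at 0 in 2 libraries and Sgs1 in 1. Midgut markers (10 genes) summed to between 99.3 and 437 in the mutant and 123 and 210 in fed wild type. In the starved wild type they summed to between 1.03 and 6.76. There Jon99Ci, betaTry, LysB and LysE were each at 0 in at least 2 of 4 libraries. Zeros were not limited to starved wild type. LysE was also at 0 in both fed libraries and mutant replicate 2, Jon99Ci in fed replicate 2 and LysB in fed replicate 1. Of 7 midgut markers tested, 4 rose and 0 fell in the mutant against fed wild type. Against wild type at 16 h, 7 rose and 0 fell in the mutant. At 4 h and at 16 h against fed, 0 rose and 3 fell. Muscle markers (11 genes) lay between 56.6 and 93.1 in the mutant, 119 and 179 in fed wild type and 14.4 and 37.9 in starved wild type. Haemocyte markers (9 genes) lay between 41.1 and 125 in the mutant, 19.8 and 19.9 in fed wild type and 33.1 and 53.0 in starved wild type. Of 7 haemocyte markers tested at 16 h against fed, 2 rose and 0 fell. By sign alone 3 were higher and 4 lower, with a median log2 fold change of -0.002. The part of these differences in the results below was not tested, and in whole tissue fewer cells of a type and less RNA per cell cannot be told apart. Cpsf5 RNA itself stood at 3.60 and 3.01 scaled TPM in the mutant. Wild type was at 12.0 and 10.9 fed, 6.47 and 3.62 at 4 h and 5.06 and 4.20 at 16 h. The mutant lay lowest, only narrowly under 4 h replicate 2, and its difference from wild type at 16 h did not pass (log2 fold change -0.39, SE 0.24, limma adjusted p = 0.256). Against fed wild type, Cpsf5 fell at 4 h (-1.08, limma adjusted p = 0.0118), at 16 h (-1.15, 0.00929) and in the mutant (-1.53, 0.00362). What the allele changes is not stated in the labels.

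Starvation of wild-type larvae was accompanied by higher RNA of nearly the whole group. At 4 h against fed, 9 of the 10 genes rose and none fell, while of all genes tested 21.1% rose and 26.6% fell. Atg18b, Uvrag, Atg9 and Atg18a had adjusted p-values of 0.00204 or less. The median log2 fold change of the 10 genes was 1.31, beside -0.03 over all genes tested. At 16 h against fed, 8 rose and none fell, against backgrounds of 21.6% and 27.7%, with a median of 1.11 beside 0.01. In the starved mutant against fed wild type 9 rose and none fell, against backgrounds of 23% and 22.4%, with a median of 1.07 beside 0.07. All 3 comparisons share the fed libraries as their baseline, and in each of them both starved libraries lay above both fed libraries for all 10 genes. Of all genes tested, 35.5% lay that way at 4 h, 38.1% at 16 h, and 42.5% when the mutant was set against fed. No gene of the group passed the test in the starved mutant against wild type starved as long, where 21.4% of all genes rose and 12.1% fell, or between 16 h and 4 h of starvation in wild type, where 0% rose and 0.036% fell. At an unadjusted p under 0.05 limma counted 1 of the 10 higher and 1 lower in the mutant against wild type at 16 h, beside 28.1% and 17.2% of all genes tested. Between 16 h and 4 h it counted 0 higher and 2 lower, beside 8.32% and 7.73%.

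**Figure D1:**
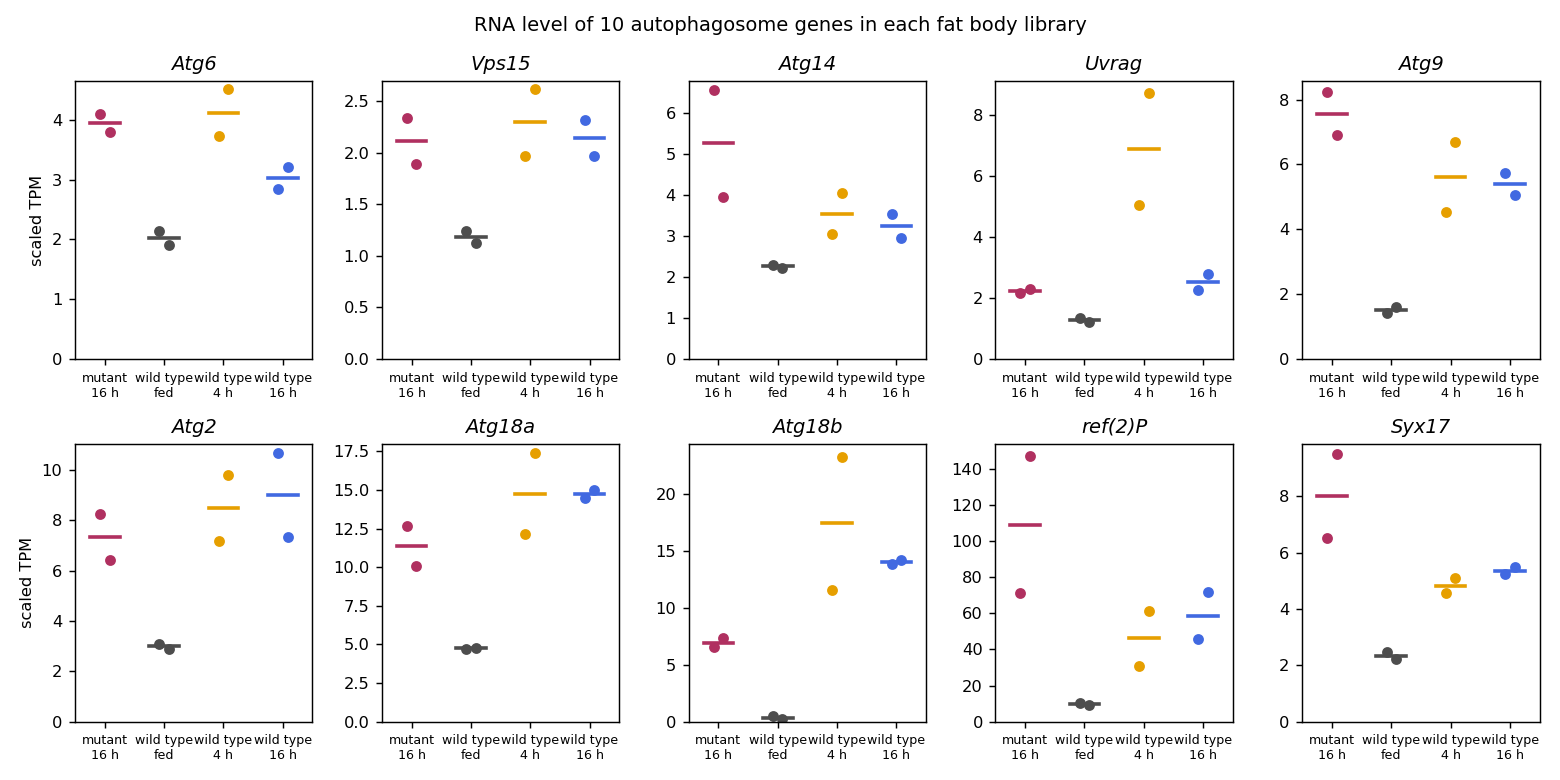
RNA level in scaled TPM (vertical axis, linear, from 0) of each of the 10 genes in every library (points), with the group mean (bar), for CPSF5 mutants starved for 16 h and wild type fed, starved for 4 h and starved for 16 h. Fed libraries form the lowest pair in all 10 panels, and ref(2)P has the highest levels, up to 147 in one mutant library.

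The size of the factor that scales each library matters for how many of these calls stand. With TPM as deposited the median gene moved by -0.53 (log2) in wild type at 4 h and by -0.82 at 16 h. It moved by -0.11 for the mutant set against fed wild type and by 0.77 for the mutant set against wild type at 16 h. The counts of risen genes became 6 at 4 h against fed, 2 at 16 h against fed, 6 in the mutant against fed and 5 in the mutant against wild type at 16 h. Shares of all genes called were taken with median-of-ratios factors only, so these counts have no background beside them. Under all 4 scalings (none, median-of-ratios, coding genes, quantile) Uvrag passed at 4 h, Atg18b and ref(2)P passed in all 3 comparisons with fed wild type, Atg2, Atg9 and Atg18a at 4 h and in the mutant, and Syx17 in the mutant. The Vps15 calls, the 16 h call of Atg6 and the mutant call of Atg14 were made with median-of-ratios factors only. Of the other calls, those of Atg2, Atg9, Atg18a and Syx17 at 16 h were lost without scaling, those of Atg6 and Syx17 at 4 h without scaling and over coding genes, and that of Atg6 in the mutant without scaling and with quantile normalization. Log2 fold changes at 16 h against fed were below 0 without scaling for Atg6 (-0.38), Atg14 (-0.45), Uvrag (-0.10) and Vps15 (-0.18). All of them stood above the median gene. Relative to that median, all 10 genes stayed above the median gene in all 3 comparisons with fed wild type under each of the 4 scalings, by between 0.25 and 3.89. The scalings other than quantile differ by 1 factor per library, which setting genes against the median gene largely removes. Agreement among those scalings was therefore nearly fixed in advance.

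Of the 4 genes of the lipid kinase complexes, Atg6 is the fly Beclin 1 and Vps15 the scaffold kinase of the complex, both shared by all its forms, while Atg14 defines the form that works on autophagosomes and Uvrag the form that works mainly on endosomes. Atg6 (chromosome 3R, 24049180 to 24050782, minus strand; BDGP6, as for all coordinates here) stood at 4.10 and 3.80 scaled TPM in the mutant. In wild type it was 2.13 and 1.90 fed, 3.72 and 4.52 at 4 h and 2.85 and 3.22 at 16 h. The fed libraries were the lowest, and the 16 h wild type lay between them and an overlapping pair formed by the mutant and the 4 h groups. Atg6 rose at 4 h (log2 fold change 0.76, SE 0.13, adjusted p = 0.00458), at 16 h (0.42, SE 0.13, adjusted p = 0.0411) and in the mutant against fed (0.72, SE 0.13, adjusted p = 0.00676). Its 16 h call was lost without any 1 library of the fed, 16 h or mutant groups (log2 fold changes 0.35 to 0.48, adjusted p 0.0614 to 0.198). It was also lost without the filter on low genes (adjusted p = 0.115), with the 2 groups alone (0.0584) and without a variance trend (0.0592). Its call in the mutant was lost without fed replicate 2 (0.66, adjusted p = 0.0575).

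Vps15 (chromosome 3R, 9240757 to 9245869, minus strand) had the lowest mean of the 10 genes at 16 h in both genotypes. It had 2.33 and 1.89 scaled TPM in the mutant. The wild-type values were 1.24 and 1.13 fed, 1.97 and 2.62 at 4 h and 2.32 and 1.97 at 16 h. The 3 starved groups overlapped each other and lay above the fed pair. It rose at 4 h (log2 fold change 0.58, SE 0.16, adjusted p = 0.0278), at 16 h (0.52, SE 0.16, adjusted p = 0.0398) and in the mutant against fed (0.51, SE 0.16, adjusted p = 0.0472). The call at 4 h did not survive leaving out fed replicate 1, fed replicate 2 or 4 h replicate 2 (0.62, 0.55 and 0.44; adjusted p 0.0919, 0.123 and 0.111). The 16 h call was lost without either fed or either 16 h library (0.44 to 0.60, adjusted p 0.0743 to 0.159), and the mutant call without any of the fed, 16 h or mutant libraries (0.40 to 0.61, adjusted p 0.0634 to 0.182). Without the filter on low genes none of the 3 passed (adjusted p 0.0821 to 0.109), nor did the 4 h call with the 2 groups alone (0.0536).

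Atg14 (chromosome 3R, 29116391 to 29118390, plus strand) had 6.55 and 3.95 scaled TPM in the mutant. Wild-type libraries had 2.30 and 2.21 fed, 3.03 and 4.04 at 4 h and 3.54 and 2.95 at 16 h. Mutant replicate 1 was the highest of the 8 libraries, and the fed pair the lowest. The gene did not pass the test at 4 h (log2 fold change 0.47, 95% interval -0.09 to 1.03, adjusted p = 0.142) or at 16 h (0.38, interval -0.18 to 0.94, adjusted p = 0.221), and it rose in the mutant against fed (0.91, SE 0.23, adjusted p = 0.0201). That call was lost without fed replicate 1, fed replicate 2 or mutant replicate 1 (0.93, 0.89 and 0.60; adjusted p 0.0831, 0.0997 and 0.0731).

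Uvrag (chromosome 2L, 13286777 to 13289556, plus strand) was the only one of the 10 whose 4 h wild-type pair lay above all other libraries. It stood at 2.18 and 2.28 scaled TPM in the mutant. Wild type was at 1.36 and 1.22 fed, 5.05 and 8.74 at 4 h and 2.27 and 2.78 at 16 h. The mutant and the 16 h wild type overlapped, and both lay above the fed pair and below the 4 h pair. Uvrag rose at 4 h, where its mean was 5.35 times that of fed wild type (log2 fold change 1.75, SE 0.23, adjusted p = 0.00159). It did not pass at 16 h (0.62, SE 0.23, adjusted p = 0.0688) or in the mutant against fed (0.50, SE 0.23, adjusted p = 0.130). Without either 4 h library Uvrag passed in both (adjusted p 0.0128 and 0.0145 for 16 h, 0.0285 and 0.0315 for the mutant), as it did with the 2 groups alone (0.0283 for 16 h, 0.0338 for the mutant). At 16 h it also passed with pseudocounts of 0.5 and 0.1 (0.75 and 0.91; adjusted p 0.0481 and 0.0345). From 4 h to 16 h of starvation its mean was 2.52 ± 0.37 at 16 h and 6.89 ± 2.61 at 4 h, a log2 fold change of -1.13 (SE 0.23, unadjusted p = 0.00265, adjusted p = 0.140), which did not pass.

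The genes for building the membrane rose at both times. Atg9, the transmembrane lipid scramblase of the seeding vesicles (chromosome 2R, 16294400 to 16297232, plus strand), had 8.23 and 6.90 scaled TPM in the mutant. In wild type it was 1.41 and 1.61 fed, 4.53 and 6.69 at 4 h and 5.74 and 5.07 at 16 h. The mutant pair was the highest of all, the fed pair the lowest, and the 2 starved wild-type groups overlapped. Atg9 rose at 4 h (log2 fold change 1.38, SE 0.19, adjusted p = 0.0018), at 16 h (1.35, SE 0.19, adjusted p = 0.00188) and in the mutant against fed (1.77, SE 0.19, adjusted p = 0.000956), and leaving out any 1 library changed none of these calls.

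Atg2, the lipid transfer protein of the growing phagophore (chromosome 3L, 2774338 to 2780677, plus strand), had 8.25 and 6.44 scaled TPM in the mutant. The wild-type values were 3.09 and 2.91 fed, 7.19 and 9.80 at 4 h and 10.6 and 7.34 at 16 h. All 3 starved groups overlapped and lay above the fed pair. Atg2 rose at 4 h (log2 fold change 1.24, SE 0.23, adjusted p = 0.00562), at 16 h (1.30, SE 0.23, adjusted p = 0.00454) and in the mutant against fed (1.05, SE 0.23, adjusted p = 0.0118). The call in the mutant was lost without fed replicate 1, fed replicate 2 or mutant replicate 1 (1.09, 1.02 and 0.90; adjusted p 0.057, 0.0736 and 0.0665).

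The 2 WIPI genes behaved differently in size. Atg18a, a fly WIPI protein that binds phosphatidylinositol 3-phosphate (chromosome 3L, 8186857 to 8191118, plus strand), had 12.6 and 10.1 scaled TPM in the mutant. Wild-type libraries had 4.73 and 4.79 fed, 12.1 and 17.4 at 4 h and 14.5 and 15.0 at 16 h. Its fed pair was the lowest and the mutant pair lay below the 16 h wild type without overlap. It rose at 4 h (log2 fold change 1.43, SE 0.20, adjusted p = 0.00204), at 16 h (1.45, SE 0.20, adjusted p = 0.00188) and in the mutant against fed (1.09, SE 0.20, adjusted p = 0.0068).

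Atg18b, its paralogue (chromosome 2L, 21212322 to 21220572, minus strand), was at 6.59 and 7.33 scaled TPM in the mutant. Wild type was at 0.483 and 0.254 fed, 11.6 and 23.3 at 4 h and 13.9 and 14.2 at 16 h. In fed larvae it was the lowest of the 10 genes, under 1 scaled TPM in both libraries, and in starved wild type it was about level with Atg18a. The mean at 4 h was 47.4 times that of fed wild type, the mean at 16 h 38.1 times and the mean in the mutant 18.9 times, ratios that rest on fed values below 0.5 scaled TPM. It rose at 4 h (log2 fold change 3.68, SE 0.30, adjusted p = 0.000261), at 16 h (3.46, SE 0.30, adjusted p = 0.000334) and in the mutant against fed (2.54, SE 0.30, adjusted p = 0.00134), and these calls held without each library in turn.

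Among the 10 genes ref(2)P, which encodes the fly p62 cargo receptor and whose protein is itself consumed by autophagy, was the most abundant per length in every group. It lies on chromosome 2L, 19542468 to 19545548, plus strand. It stood at 71.3 and 147 scaled TPM in the mutant. In wild type it was 10.5 and 9.16 fed, 31.0 and 61.4 at 4 h and 45.6 and 71.6 at 16 h. The 3 starved groups were spread widely and overlapped from one to the next, with mutant replicate 2 far above the rest and both fed libraries below all others. ref(2)P rose at 4 h (log2 fold change 2.05, SE 0.47, adjusted p = 0.0131), at 16 h (2.43, SE 0.47, adjusted p = 0.00675) and in the mutant against fed (3.26, SE 0.47, adjusted p = 0.00267). Its 4 h call was lost without fed replicate 1, fed replicate 2 or 4 h replicate 2 (2.14, 1.96 and 1.57; adjusted p 0.058, 0.0725 and 0.0607).

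Syx17, the SNARE that sits on closed autophagosomes and pairs with Snap29 and Vamp7 for fusion (chromosome 3L, 4403487 to 4405168, plus strand), had 6.52 and 9.51 scaled TPM in the mutant. The wild-type values were 2.47 and 2.23 fed, 4.57 and 5.10 at 4 h and 5.23 and 5.50 at 16 h. The 4 groups did not overlap, with fed lowest, then 4 h, then 16 h, then the mutant. Syx17 rose at 4 h (log2 fold change 0.80, SE 0.18, adjusted p = 0.0119), at 16 h (0.93, SE 0.18, adjusted p = 0.00668) and in the mutant against fed (1.41, SE 0.18, adjusted p = 0.00173). Its 4 h call was lost without fed replicate 1, fed replicate 2 or 4 h replicate 2 (0.85, 0.75 and 0.74; adjusted p 0.0534, 0.0774 and 0.0559), and its 16 h call without fed replicate 2 (0.87, adjusted p = 0.0511).

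**Figure D2:**
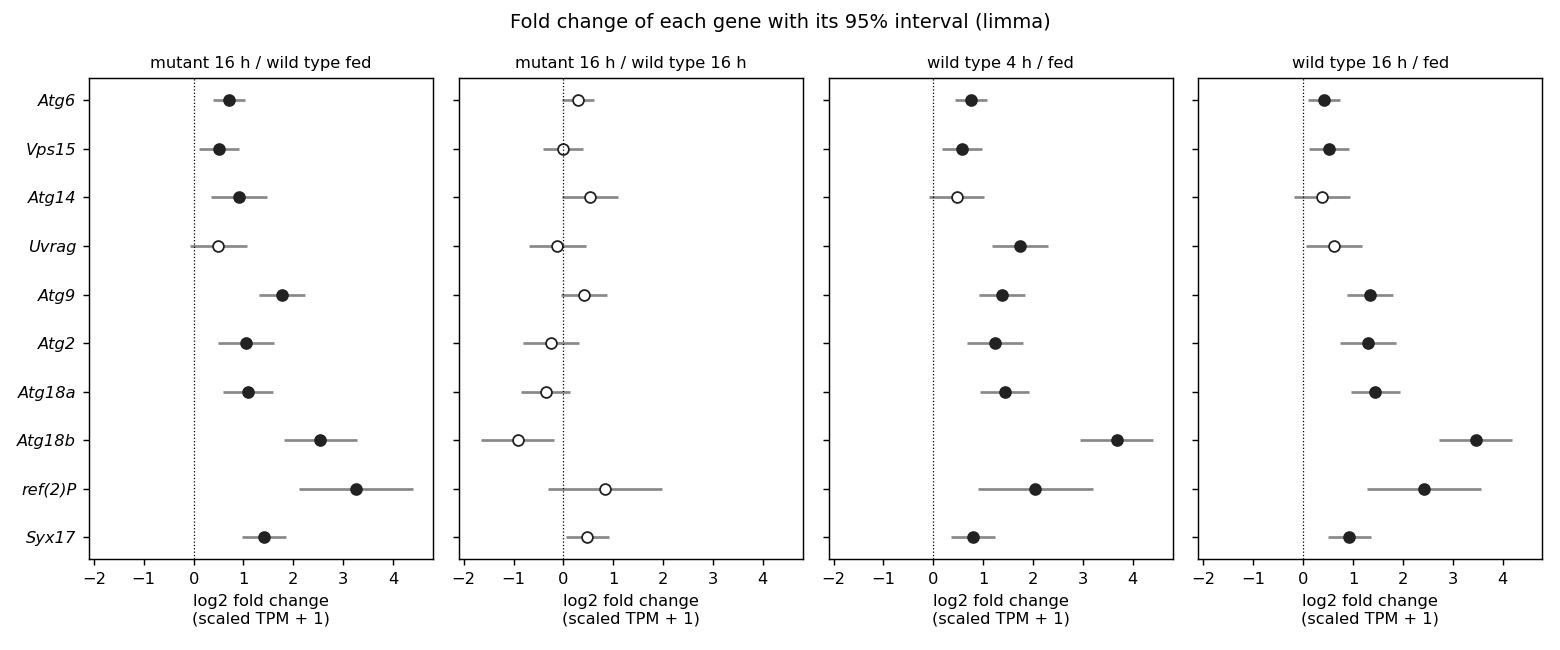
Log2 fold change of scaled TPM + 1 (horizontal axis) with its 95% interval from limma for each of the 10 genes, in the mutant against fed wild type, the mutant against wild type at 16 h, and wild type at 4 h and at 16 h against fed; filled points passed at an adjusted p under 0.05. All points lie right of 0 in the 3 comparisons with fed libraries, with Atg18b and ref(2)P farthest, and no point is filled for the mutant against wild type at 16 h.

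Between mutant and wild type starved for 16 h, the group did not move one way. The means of Atg14, Atg9, Syx17 and Atg6 lay higher in the mutant with no overlap of libraries, at 1.62, 1.40, 1.49 and 1.30 times wild type, and those of Atg18b and Atg18a lower with no overlap, at 0.496 and 0.770 times. Over all genes tested 41.2% lay higher and 31.2% lower in this way, so that 4 and 2 of 10 are near the background. The libraries overlapped for ref(2)P, Atg2, Uvrag and Vps15. None passed the test. The lowest adjusted p was that of Atg18b (log2 fold change -0.92, SE 0.30, 95% interval -1.65 to -0.19, unadjusted p = 0.0219, adjusted p = 0.0608), followed by Syx17 (0.48, SE 0.18, interval 0.05 to 0.92, unadjusted p = 0.0349, adjusted p = 0.0849).

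Mean ref(2)P RNA was 109 ± 53.6 scaled TPM in the mutant and 58.6 ± 18.4 in wild type at 16 h, a log2 fold change of 0.83 whose interval ran from -0.32 to 1.97 (adjusted p = 0.219). For the remaining genes the log2 fold change and its 95% interval were 0.53 (-0.03 to 1.09) for Atg14, 0.42 (-0.04 to 0.88) for Atg9, 0.30 (-0.03 to 0.62) for Atg6, -0.36 (-0.85 to 0.14) for Atg18a, -0.25 (-0.80 to 0.31) for Atg2, -0.12 (-0.69 to 0.44) for Uvrag and -0.02 (-0.42 to 0.39) for Vps15. The widths of these intervals do not allow the genes to be called level between the genotypes. Leaving out 1 library made a call for Atg14 without mutant replicate 2 (0.83, adjusted p = 0.0456), for Syx17 without mutant replicate 1 (0.72, adjusted p = 0.0315) and for Atg18b without either 4 h library (-0.92 each, adjusted p 0.00715 and 0.00751). Atg18b also passed with rescaling over coding genes, with quantile normalization and with the 2 groups alone (-0.83, -1.06 and -0.92; adjusted p 0.0379, 0.0298 and 0.026).

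Without scaling, Atg6, Atg9, Atg14, ref(2)P and Syx17 passed as higher in the mutant (0.96, 1.18, 1.22, 1.72 and 1.24), with the median gene at 0.77 in the same direction. Relative to that median these 5 stood at 0.19, 0.41, 0.45, 0.95 and 0.47, and the other 5 below it, Atg18b lowest at -0.86. The same 5 genes lay above and the same 5 below the median gene under all 4 scalings. Apart from quantile normalization the scalings differ by 1 factor per library, which setting genes against the median gene largely removes. Their agreement was thus nearly fixed in advance and adds no support. By definition as many of all genes lie above the median gene as below it.

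**Figure D3:**
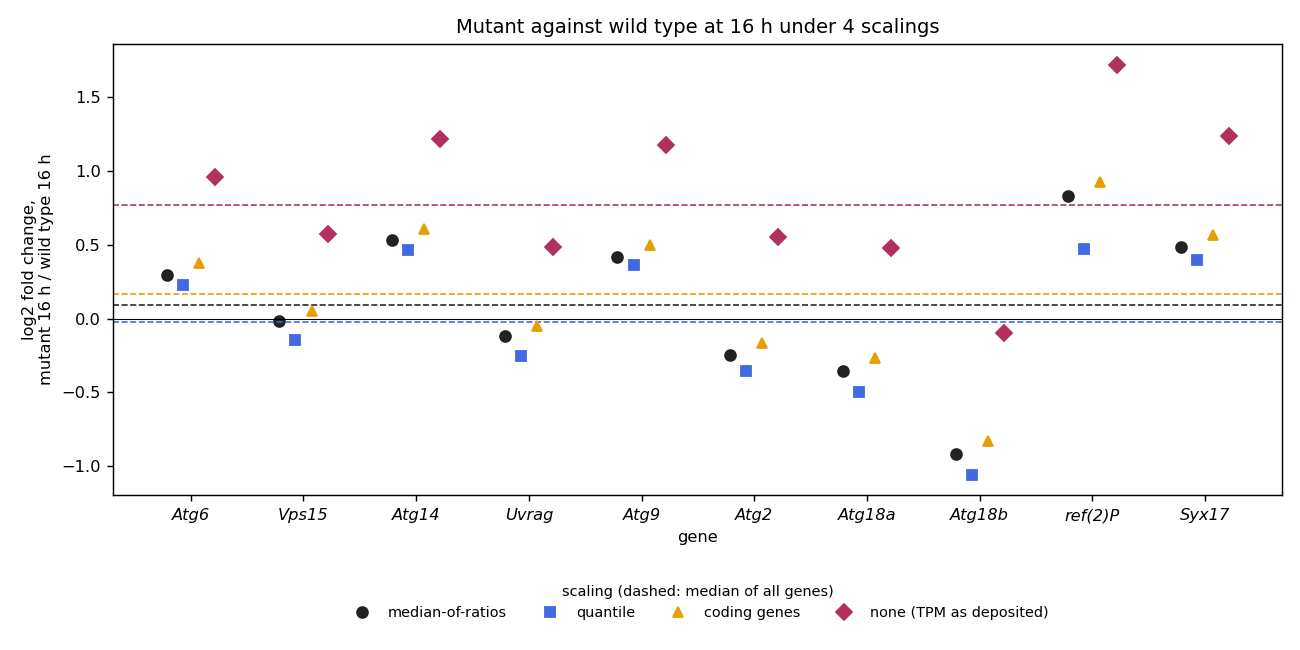
Log2 fold change of each gene in the mutant against wild type at 16 h (vertical axis) under 4 scalings of the libraries (symbols), with dashed lines at the median of all genes tested under each. The unscaled values sit higher for every gene by about the shift of the median gene, and ref(2)P lies highest and Atg18b lowest under each scaling, with Atg14 nearly level with ref(2)P under quantile normalization.

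Ratios of genes inside a library need no factor between libraries. The smallest two-sided p of an exact permutation test of 2 libraries against 2 is 0.333, and these ratios are descriptions. The ratio of Uvrag to Atg14 in deposited TPM, which sets the endosomal against the autophagosomal partner, was 0.333 and 0.579 in the mutant. Wild-type libraries had 0.591 and 0.551 fed, 1.66 and 2.16 at 4 h and 0.639 and 0.943 at 16 h. Uvrag thus had more RNA per length than Atg14 at 4 h and less in all 6 other libraries. Atg18b stood at 0.522 and 0.729 times Atg18a in the mutant. Wild type was at 0.102 and 0.0530 fed, 0.954 and 1.34 at 4 h and 0.958 and 0.948 at 16 h. The mutant libraries lay between the fed and the starved wild-type ones. The share of ref(2)P in the summed TPM of all 10 genes was 55.4% and 73.8% in the mutant. In wild type it was 35.3% and 33.4% fed, 36.6% and 42.8% at 4 h and 42.8% and 55.2% at 16 h. Both mutant libraries were above every wild-type library, mutant replicate 1 only narrowly above wild-type 16 h replicate 2.

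**Figure D4:**
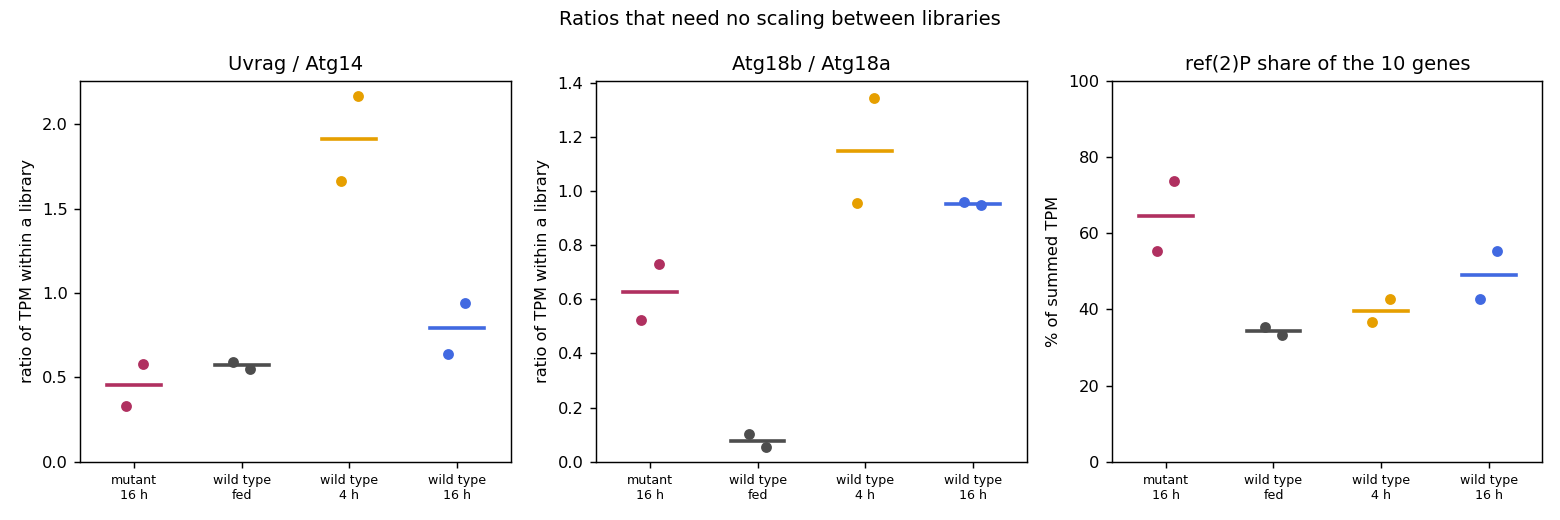
Uvrag to Atg14 and Atg18b to Atg18a as ratios of TPM within a library, and ref(2)P as a percentage of the summed TPM of the 10 genes, for each library (points) with the group mean (bar). Uvrag exceeds Atg14 only in the 4 h wild-type pair, and Atg18b is near 0 relative to Atg18a only in the fed pair.

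Shares of isoforms were examined because the mutated gene acts in 3′ end choice. Of the 10 genes, Atg6 and Atg14 have 1 annotated transcript. The transcript pairs of Atg9 and of Syx17 share all exons and had equal values in every library, since they differ only in where the annotated coding sequence lies (2535 and 2556 nt in Atg9, 903 and 1038 nt in Syx17). In Uvrag and Vps15 the gene level was too low for the share test, which asked for a mean of 5 TPM. The test covered 10 isoforms of Atg2, Atg18a, Atg18b and ref(2)P. In Atg2, Atg18b and ref(2)P, with 2 isoforms each, the 2 tests mirror each other with equal p-values. The 10 isoforms are therefore fewer separate tests. None passed in any comparison, while of all isoforms tested 18.1% passed at 4 h against fed, 19.3% at 16 h against fed, 0% at 16 h against 4 h, 19.8% in the mutant against wild type at 16 h and 20.3% in the mutant against fed. At an unadjusted p under 0.05 limma counted 1 of the 10 at 4 h against fed (31.2% of all isoforms tested), 0 at 16 h against fed (34.1%), 1 at 16 h against 4 h (9.15%), 1 in the mutant against wild type at 16 h (35%) and 0 in the mutant against fed (35.6%). At 4 h, some of the isoforms passed when 4 h replicate 2 was left out. The share of all isoforms passing in that fit was not taken.

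Atg18b and ref(2)P each have a pair of isoforms with the same coding sequence and different 3′ ends. The 3′ UTR is annotated as 373 nt in Atg18b-RA and 744 nt in Atg18b-RB, and as 156 nt in ref(2)P-RA and 246 nt in ref(2)P-RB. The longer Atg18b-RB made up 47.2% and 59.1% of the gene's TPM in the mutant. The wild-type values were 49.0% and 20.1% fed, 78.1% and 24.6% at 4 h and 62.2% and 66.1% at 16 h. The fed shares rest on gene levels of only 0.732 and 0.333 TPM. Atg18b met the limit of 5 TPM through its mean over all libraries, so its share tests against fed rest on these low values. The mutant pair lay below the 16 h wild-type pair without overlap, and the 4 h libraries disagreed widely. The difference in the mutant did not pass (log2 ratio -0.53, 95% interval -2.55 to 1.48, adjusted p = 0.701). The shorter ref(2)P-RA held 43.2% and 32.0% in the mutant. Wild-type libraries had 0% and 48.6% fed, 0% and 61.0% at 4 h and 14.5% and 16.6% at 16 h. This isoform was listed at 0 in 1 library of each of the fed and 4 h groups and at a large share in the other, so the estimate of its share is not stable between libraries of 1 group.

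Atg18a has 7 annotated transcripts, of which Atg18a-RD was the main one at 61.2% and 71.0% in the mutant. Wild type was at 64.9% and 65.6% fed, 76.5% and 71.7% at 4 h and 65.9% and 55.3% at 16 h. The 4 h pair was the highest, just above mutant replicate 2, and the other groups overlapped. Atg18a-RE, which has an annotated coding sequence of 1341 nt beside 1305 nt in Atg18a-RD, was at 5.03% and 4.11% in the mutant and 11.7% and 9.24% in wild type at 16 h, without overlap (log2 ratio -0.84, SE 0.27, adjusted p = 0.0733). Atg18a-RB, which shares its coding sequence with Atg18a-RA, was at 6.37% and 5.59% at 4 h and 11.5% and 8.02% fed (log2 ratio -0.80, SE 0.24, adjusted p = 0.0616), and Atg18a-RA ranged from 0% to 22.1% over the 8 libraries. Atg2-RA held 59.2% and 56.3% in the mutant. In wild type it was 56.7% and 59.2% fed, 54.0% and 78.0% at 4 h and 67.7% and 68.6% at 16 h. The transcript differs from Atg2-RB only in a 5′ UTR of 274 against 281 nt.

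Below the limit of the share test, Uvrag-RB, with a coding sequence of 2085 nt beside 2088 nt in Uvrag-RA, was at 3.47% and 6.55% in the mutant. The wild-type values were 20.4% and 17.4% fed, 14.2% and 16.9% at 4 h, and it was listed at 0 in both wild-type libraries at 16 h. With the limit lowered to a mean of 2 TPM the test also covered Uvrag, 12 isoforms in all. None of the 12 passed in any comparison. The share of all isoforms passing at that limit was not taken. Vps15-RA, the longest of 3 Vps15 transcripts at 4239 nt, held 88.7% and 91.0% in the mutant. Wild-type libraries had 66.0% and 87.7% fed, 72.0% and 75.8% at 4 h and 75.4% and 72.1% at 16 h. Vps15-RC was listed at 0 in both mutant libraries and in 1 fed library and held between 13.6% and 27.0% in the other 5. These shares rest on gene levels of a few TPM.

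**Figure D5:**
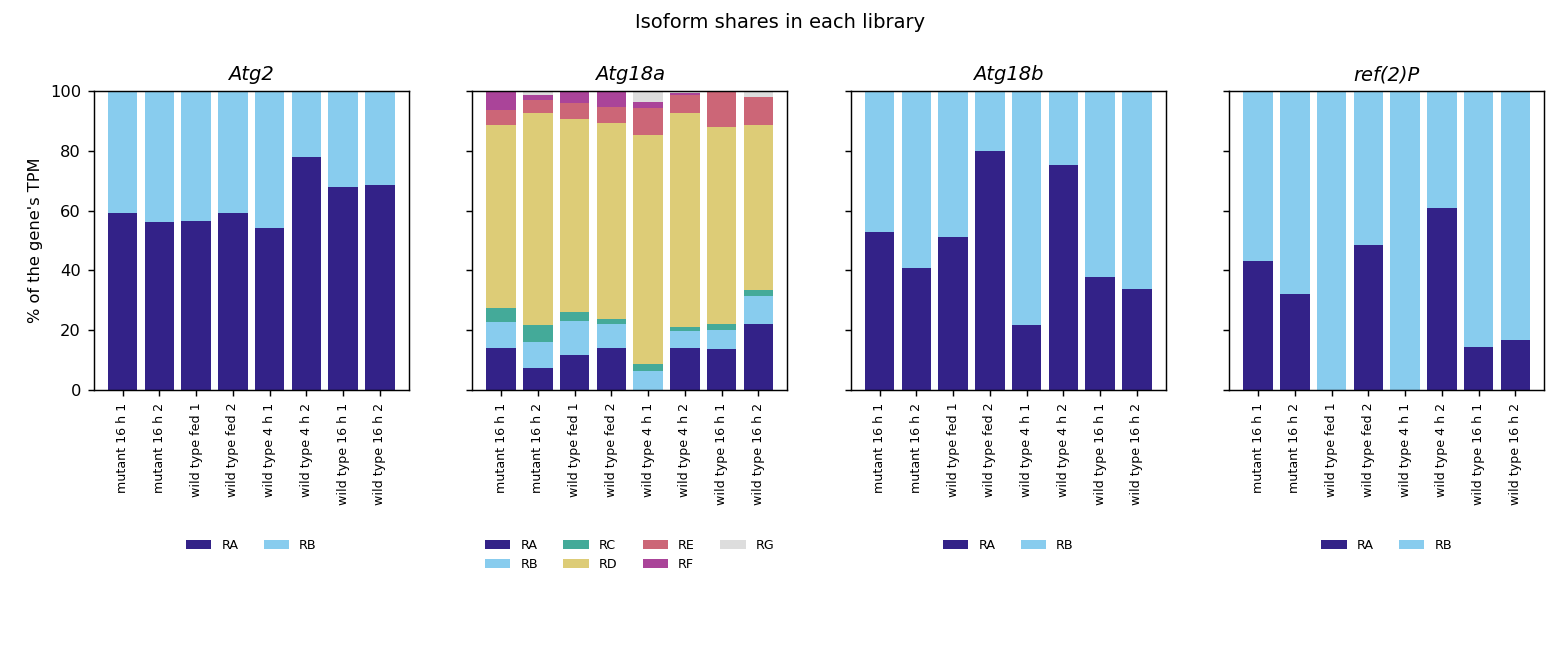
Share of each annotated transcript in the TPM of Atg2, Atg18a, Atg18b and ref(2)P (vertical axis, percent of the gene's TPM) in every library, stacked to 100%. The shares of Atg18b and ref(2)P differ as much between the fed libraries, and between the 4 h libraries, as between groups, while Atg18a-RD is the largest share of Atg18a in all 8. The fed shares of Atg18b rest on gene levels of 0.732 and 0.333 TPM.

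Some of the genes share exon sequence with neighbours on the opposite strand. The sources do not say whether strand was used in counting. The antisense RNA asRNA:CR44972, at 0 to 3.07 scaled TPM, covers 600 nt (23.8%) of the Uvrag exons. CG10337 covers 173 nt (7.22%) of ref(2)P exons at 2.43 to 6.26 scaled TPM. CG15019 covers 42 nt (2.68%) of Syx17 exons at 5.73 to 106 scaled TPM, and yem 61 nt (3.27%) of Atg14 exons at 0.852 to 1.27. Without strand, reads from such a stretch cannot be assigned to 1 gene.

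Other genes of the same pathway were read from 7 lists as background to the 10. The shares of all genes called given above hold for median-of-ratios factors, so list counts under other scalings have no background beside them. At 4 h against fed, 2 of 4 genes of the Atg1 kinase complex, which starts autophagy, rose and 1 fell. Atg1 averaged 8.47 ± 1.98 scaled TPM at 4 h and 2.03 ± 0.01 in fed wild type (log2 fold change 1.63, SE 0.23, adjusted p = 0.00205). Of 9 tested genes for attaching Atg8 to lipid, 5 rose and 1 fell, led by the E1-like enzyme Atg7 at 16.0 ± 5.43 at 4 h and 0.550 ± 0.00267 fed (log2 fold change 3.41, adjusted p = 0.00022). Atg8a, the lipid-bound tag of the autophagosome, was at 188 ± 36.7 at 4 h and 27.4 ± 0.02 fed (2.72, adjusted p = 0.000283).

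Pi3K59F, the fly Vps34 and catalytic partner of Atg6 and Vps15, averaged 2.31 ± 0.39 scaled TPM at 4 h and 1.03 ± 0.10 in fed wild type (log2 fold change 0.71, SE 0.16, adjusted p = 0.0125), the 1 of 3 tested genes of that lipid's turnover that rose. That call was lost under the 3 other scalings (adjusted p 0.0759 to 0.293) and without fed replicate 1, fed replicate 2 or 4 h replicate 2 (0.66, 0.75 and 0.59; adjusted p 0.0736, 0.052 and 0.0578). In the membrane supply list 2 of 4 rose, the Rab GTPase regulator gene TBC1D5 (40.8 ± 20.8 at 4 h and 7.16 ± 1.57 fed; 2.27, adjusted p = 0.00315) and the secretory GTPase gene Rab1 (67.2 ± 5.19 at 4 h and 32.6 ± 0.50 fed; 1.02, adjusted p = 0.00631), and none fell. In the list of other cargo factors 2 of 3 rose, bchs at 1.66 and Sting at 1.43 (log2 fold changes), and none fell. Without scaling Rab1 and Sting did not pass (0.37 and 0.84), nor did Rab1 over coding genes (0.54). Of 15 fusion and tethering genes 9 rose and none fell, among them the Syx17 partners Vamp7 (37.8 ± 12.5 at 4 h and 11.0 ± 1.56 fed; 1.66, adjusted p = 0.00312) and Snap29 (13.5 ± 3.05 at 4 h and 4.25 ± 0.45 fed; 1.45, adjusted p = 0.0012) and the lysosomal GTPase Rab7 (64.0 ± 15.1 at 4 h and 20.0 ± 1.75 fed; 1.61, adjusted p = 0.00168). Without scaling 3 of the 15 rose and 2 fell. Of 9 tested lysosome genes 8 rose and none fell, and 4 rose without scaling. The protease genes led that list, cathD at 899 ± 385 at 4 h and 103 ± 21.7 fed (3.05, adjusted p = 0.000847) and CtsB at 69.1 ± 24.2 at 4 h and 7.36 ± 0.18 fed (3.02, adjusted p = 0.000465).

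At 16 h against fed the counts that rose and fell were 3 and 0 of 4 for the Atg1 complex, 4 and 1 of 9 for Atg8 attachment, 1 and 0 of 3 for the lipid kinase list, 2 and 0 of 4 for membrane supply, 7 and 1 of 15 for fusion, 2 and 0 of 3 for other cargo factors and 6 and 0 of 9 for the lysosome. Without scaling they were 0 and 1, 2 and 1, 0 and 0, 1 and 0, 0 and 3, 1 and 0, and 3 and 2 in the same order, so the balance of the fusion list turned. None of these genes passed between 16 h and 4 h in wild type by limma. At an unadjusted p under 0.05 limma counted 1 of 15 fusion genes, 3 of 9 lysosome genes and 0 elsewhere. Of all genes tested, 8.32% were higher and 7.73% lower at that limit. In the mutant against fed wild type the counts that rose and fell were 2 and 1, 4 and 0, 2 and 0, 3 and 0, 4 and 0, 2 and 0, and 6 and 0 of the same numbers. Without scaling they were 2 and 1, 3 and 0, 1 and 0, 2 and 0, 2 and 0, 2 and 0, and 3 and 0.

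In the mutant against wild type at 16 h the lists held genes that passed in both directions, while 21.4% of all genes tested rose and 12.1% fell. None of the 10 described above passed in the main fit, though Atg18b (limma adjusted p = 0.0608) did under some alternatives. Whether the lists differ from the 10 was not tested. Atg7 averaged 1.71 ± 0.26 scaled TPM in the mutant and 14.8 ± 3.88 in wild type (log2 fold change -2.53, SE 0.27, adjusted p = 0.00181), and Atg5, which it helps to conjugate, 2.88 ± 0.35 in the mutant and 6.33 ± 0.30 in wild type (-0.92, SE 0.14, adjusted p = 0.00503). In this list 1 gene rose and 2 fell of 9, while 3 rose and 1 fell without scaling and 0 rose and 3 fell with quantile normalization. In the Atg1 complex 2 rose and 2 fell of 4 (2 and 1 without scaling, 1 and 2 with quantile normalization), Atg101 to 0.897 ± 0.132 in the mutant, against 4.30 ± 0.99 in wild type (-1.47, SE 0.17, adjusted p = 0.0024), while Atg13 rose (13.0 ± 5.63 in the mutant and 5.51 ± 0.29 in wild type; 1.04, SE 0.27, adjusted p = 0.0283). The Atg13 call was lost without either fed or either 16 h library (1.0 to 1.09, adjusted p 0.0602 to 0.101), without the filter on low genes (0.0578) and with the 2 groups alone (0.0992), and Atg5 did not pass without scaling (-0.19, adjusted p = 0.525).

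Partners of the 10 genes passed in both directions in the same comparison. So did genes at large, of which 21.4% rose and 12.1% fell. Pi3K59F rose (4.52 ± 0.82 scaled TPM in the mutant and 2.08 ± 0.04 in wild type; log2 fold change 0.83, SE 0.16, adjusted p = 0.0113), as did the phosphatase gene EDTP (0.63, adjusted p = 0.0385), 2 of 3 in their list. The Pi3K59F call was lost without 16 h replicate 2 (0.82, adjusted p = 0.0526), and that of EDTP without either fed or 16 h library or mutant replicate 1 (0.44 to 0.65, adjusted p 0.0752 to 0.152). EDTP also did not pass over coding genes, with quantile normalization, without the filter on low genes or with the 2 groups alone (0.71, 0.58, 0.63 and 0.63; adjusted p 0.0819, 0.0762, 0.0875 and 0.0835). Vamp7 fell (13.2 ± 2.03 in the mutant and 29.2 ± 1.61 in wild type; -1.09, SE 0.26, adjusted p = 0.0239) and so did Snap29 (4.86 ± 0.22 in the mutant and 10.4 ± 0.68 in wild type; -0.96, SE 0.18, adjusted p = 0.0102), 2 of 15 fusion genes with none that rose, whereas the mean of their partner Syx17 lay 1.49 times higher in the mutant without passing. Without scaling neither passed (-0.23 and -0.17) and 4 other genes of the 15 rose, while 4 fell with quantile normalization. The Vamp7 call was lost without either 16 h or either mutant library (adjusted p 0.0593 to 0.107), and the Snap29 call without mutant replicate 1 (-0.92, adjusted p = 0.0529). Of the membrane supply list 2 rose and 1 fell of 4, with stas at 1.91 and TBC1D5 at -2.50 (log2). Of the lysosome list 2 rose and 2 fell of 9 (2 and 0 without scaling), with Gba1b at 2.14 and CtsL1 at 2.14. None of 3 passed among the other cargo factors, though 2 of the 3 rose without scaling. At an unadjusted p under 0.05 limma counted 1 of the 3, while 28.1% of all genes tested were higher and 17.2% lower.

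Profiles most like those of Atg18b and ref(2)P over the 8 libraries were looked up among the 8331 other tested genes by Pearson correlation of log2(scaled TPM + 1), as a description of libraries that share groups and scaling. For Atg18b they were Reg-5 (r = 0.998), CG5151 (0.996), CG6665 (0.995), CG18549 (0.993) and CG13796 (0.993). Reg-5 averaged 11.0 scaled TPM in the mutant, 1.23 in fed wild type, 26.4 at 4 h and 22.3 at 16 h. For ref(2)P they were Pi3K92E (r = 0.989), RNaseX25 (0.986), GramD1B (0.983), Syx17 (0.982) and Ubi-p63E (0.980), so that 1 of the 10 genes is among the nearest to another. Ubi-p63E, which encodes polyubiquitin, averaged 227 in the mutant, 56.2 in fed wild type, 141 at 4 h and 168 at 16 h.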

How the data were processed

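The members and gene lists were chosen with earlier results of these data known. Per the labels' protocols, larval fat body RNA went into stranded libraries depleted of ribosomal RNA. Alignment software STAR 2.5.3 and the genome build BDGP6 are named in the submitters' processing notes. How reads became expression values, with which annotation and with what use of strand, is not given. TPM values per gene and per transcript were deposited for 8 libraries. Gene values equalled the summed isoforms (relative tolerance 0.0001) for 99.69% of genes compared. Names and coordinates came from a later BDGP6 annotation.

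TPM was divided by median-of-ratios factors over 5393 genes at 1 TPM or more in all libraries. Genes with a mean of 1 scaled TPM or more were fitted with limma 3.58.1 in R 4.3.3 (log2 with pseudocount 1, group means over 8 libraries, trended variances, two-sided, Benjamini-Hochberg). Isoforms with mean shares of 5% to 95% in genes of 5 TPM or more were fitted as log2 ratios to the gene's other isoforms (5269 isoforms, pseudocount 1). The fit was tested on simulated data. Named genes are the 10 members, isoforms averaging at least 5% of a gene, up to 2 largest passing changes of each list, and the 5 nearest profiles of Atg18b and ref(2)P. Cpsf5, and Snap29 at 4 h, were named after their values were seen. Alternatives were other scalings, pseudocounts, filters, 2-group fits, no trend and leaving out each library.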

Additional observations from a re-analysis of the deposited data

How the results depend on the processing

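Shares of all genes called were not taken for the alternatives, so the counts in this section have no background beside them. With TPM as deposited 2 genes rose at 16 h against fed and 5 in the mutant against wild type at 16 h. In the last comparison 1 gene, Atg18b, fell with rescaling over coding genes, with quantile normalization and with only the 2 groups in the fit. Leaving out each library in turn gave 6 to 9 risen genes at 4 h against fed, 5 to 9 at 16 h against fed and 5 to 10 in the mutant against fed, in each case lowest or equal lowest without fed replicate 2, and 0 to 1 risen and 0 to 1 fallen in the mutant against wild type at 16 h. Isoforms passing at 4 h against fed numbered 0 to 3. The minimum of 5 scaled TPM tested 6 of the 10 genes. Pseudocounts of 0.5 and 0.1 gave 9 risen genes at 4 h and 9 at 16 h against fed, where Uvrag was added, and without the filter on low genes there were 8 and 6.

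Log2 fold changes turned sign without scaling for Atg14 (-0.023) at 4 h against fed, for Atg6 (-0.38), Atg14 (-0.45), Uvrag (-0.10), Vps15 (-0.18), Pi3K59F (-0.0643) and Rab1 (-0.19) at 16 h against fed, and for Atg2 (0.55), Atg18a (0.48), Uvrag (0.48) and Vps15 (0.58) in the mutant against wild type, where Vps15 was also at 0.0501 over coding genes and ran from -0.12 to 0.087 as libraries were left out in turn.

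At 16 h against 4 h, where nothing passed, Atg2 (-0.35), Atg18a (-0.42), ref(2)P (-0.0892) and Syx17 (-0.26) turned without scaling and Atg9 (0.16), Atg14 (0.0808) and Vps15 (0.0894) over coding genes. Leaving out each library there gave -0.17 to 0.31 for Atg2, -0.27 to 0.21 for Atg9, -0.25 to 0.0702 for Atg14, -0.22 to 0.26 for Atg18a, -0.69 to 0.26 for Atg18b, -0.21 to 0.0807 for Vps15 and -0.10 to 0.86 for ref(2)P. Of the single-gene comparisons with alternatives, 1527 kept direction and side, 121 lost a call, 20 gained one and 33 turned sign. A call lost with a change of sign is counted only among the last. List genes entered only where they had passed, so they could lose a call but not gain one. The cause of the changes was not tested. No paired analysis was possible because the labels give no replicate numbers. The depth is unknown, so no limit can be set on low values such as Atg18b in fed larvae.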
